A study of Mus musculus with 4 samples.

Results

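Interferon-stimulated genes are the genes that cells switch on when an interferon, a cytokine of antiviral defence, binds its receptor at the cell surface. The 39 genes described here were chosen by symbol from the type I interferon response and all 39 were found among the 37140 genes that were counted in every library. They comprise 4 transcription factors, 9 sensors of viral nucleic acid, 15 antiviral effectors, 3 genes of the ISG15 system, in which a ubiquitin-like protein is attached to other proteins, and 8 further induced genes, several of which encode Parp enzymes or their partners. Their RNA was measured in haematopoietic stem cells (HSCs) of mice with and without a deletion of Gfi1b, a transcriptional repressor of the blood stem cell, megakaryocyte and erythroid lineages.

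Type I interferons bind the receptor chains Ifnar1 and Ifnar2, and the kinases Jak1 and Tyk2 on that receptor phosphorylate Stat proteins. A complex that holds Stat2 and Irf9 then binds the interferon-stimulated response element (ISRE) in the promoters of target genes, whereas type II interferon acts through the gamma-activated site (GAS). In bone marrow, type I interferon is known to bring quiescent HSCs into cycle, and stem cells are known to hold some of these genes at a basal level without infection.

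The series held 4 libraries of bone marrow cells from tibiae, femora and humeri of C57Bl6 mice, with 1 library for each genotype and population. The populations were HSCs, sorted as Lin- cKit+ Sca1+ CD48- CD150+ cells, as well as CD41low/CD9low HSCs. The methods give no CD41 or CD9 gate for the former, whereas the study's results call them CD41+/CD9+ HSCs. Whether the CD41low/CD9low HSCs are a part of the HSC population or separate from it is thus not settled. The genotypes were Gfi1b WT and Gfi1b KO by the genotype labels, while the sample titles name the gene Gfi1. Bone marrow of several mice, more of them controls than KO, was pooled before the sort, so that no spread between animals can be estimated. KO mice carried floxed Gfi1b alleles and a Rosa-Cre transgene that is active in all tissues once tamoxifen is given. For the controls the sources differ: the methods describe Rosa-Cre mice with 1 floxed allele that also received tamoxifen, whereas the series description speaks of floxed mice with no ROSA-Cre, so whether the WT libraries share Cre and tamoxifen with the KO libraries is not settled. Sca1, encoded by Ly6a, is in the sorting gate and is itself an interferon-induced gene.

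The total count on genes ranged from 12732079 to 50781007, and the WT and KO libraries of CD41low/CD9low HSCs were the shallowest. Counts were divided by a size factor per library, and these normalised counts put the 4 libraries on 1 scale. Values of a pair, the WT and KO libraries of a population, are given with WT first. Gfi1b itself (chr2:28609450-28621982, minus strand) had 4982.3 normalised counts in WT HSCs and 32869.5 in KO HSCs, and in the CD41low/CD9low pair 1254.0 (WT) and 13388.1 (KO). The count covers the whole gene and does not separate the floxed exons, so it does not check the deletion, and it was higher in the KO library of each population. The 8 HSC markers summed to between 51136.7 and 65533.2 normalised counts in the 4 libraries and none of them was at 0.

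The letters that the interferon-activated complex is known to bind stood near the start of 10 of these genes, and promoter stretches of 4 are shown: 3 whose KO/WT ratio passed the fold limits described later, and Ifit1, a classical target whose ratio did not. Each line gives 50 bases from within the 250 upstream of the start site, on the gene's strand, from RefSeq on GRCm38.p6, with the ISRE core (GAAA, any 2 bases, GAAA) or its reverse complement in capitals.
Isg15, chr4:156200855-156200904, minus strand: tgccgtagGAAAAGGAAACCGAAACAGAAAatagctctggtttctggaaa
Stat2, chr10:128270256-128270305, plus strand: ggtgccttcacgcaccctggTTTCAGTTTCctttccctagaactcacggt
Ifit3, chr19:34583387-34583436, plus strand: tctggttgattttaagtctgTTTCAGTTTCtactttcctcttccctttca
Ifit1, chr19:34640784-34640833, plus strand: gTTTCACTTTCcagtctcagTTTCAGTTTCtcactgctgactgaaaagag
A promoter of 250 upstream bases was found for 30 of the 39 genes, and 10 of these (33.3%) held this core on either strand, against 936 of 27025 promoters of all genes (3.46%). The 10 genes were Bst2, Gbp2, Gbp3, Ifit1, Ifit3, Ifitm2, Isg15, Oas3, Rsad2 and Stat2. The GAS core TTCNNNGAA was in 6 of the 30 promoters (8.13% of all promoters), those of Bst2, Eif2ak2, Ifit2, Irf1, Isg20 and Samhd1. Of the letters that the Gfi1 family is known to bind, TAAATCAC was in 0 of 30 promoters (0.614% of all) and its core AATC in 20 (66.7%, against 72.7% of all), both strands searched. The Gfi1 matches can overlap each other, since AATC lies within TAAATCAC.

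The interferon-stimulated genes were expressed in all 4 libraries and in both genotypes, over a wide range of levels. The lowest mean normalised count was that of Ifit3 (84.8) and the highest that of Irf1 (4674.9), and all 39 genes passed the filter of a mean normalised count of at least 10 in both populations. As counts per kilobase of exon and library total (RPKM), which allows genes to be compared with each other, the mean over the 4 libraries was above 20 for 12 genes and below 3 for 5, with a median of 10.9. The 3 Ifitm genes of the 39, which lie on chromosome 7 and encode membrane proteins that block the entry of viruses, led this order. Their mean RPKM values were 159.1 for Ifitm2, 134.3 for Ifitm3 and 94.4 for Ifitm1. Bst2, a membrane protein that tethers budding virus, followed at 53.7, and the transcription factor Irf1 at 44.1. Ifitm2 and Ifitm3 held the first and the second place in each library, whereas Ifitm1 stood behind Bst2 in KO HSCs and ahead of it in the other libraries. The GTPase gene Mx1 was lowest at 1.42, with Oasl1, Ifit3, Zbp1 and Mx2 next. Of the exon bases of Ifitm2, 40.9% are shared on the same strand with an annotated gene (Gm45717), and reads aligned to more than 1 place were not counted, so the levels of the Ifitm, Oas, Gbp and Ifit paralogs are uncertain to that extent.

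**Figure D1:**
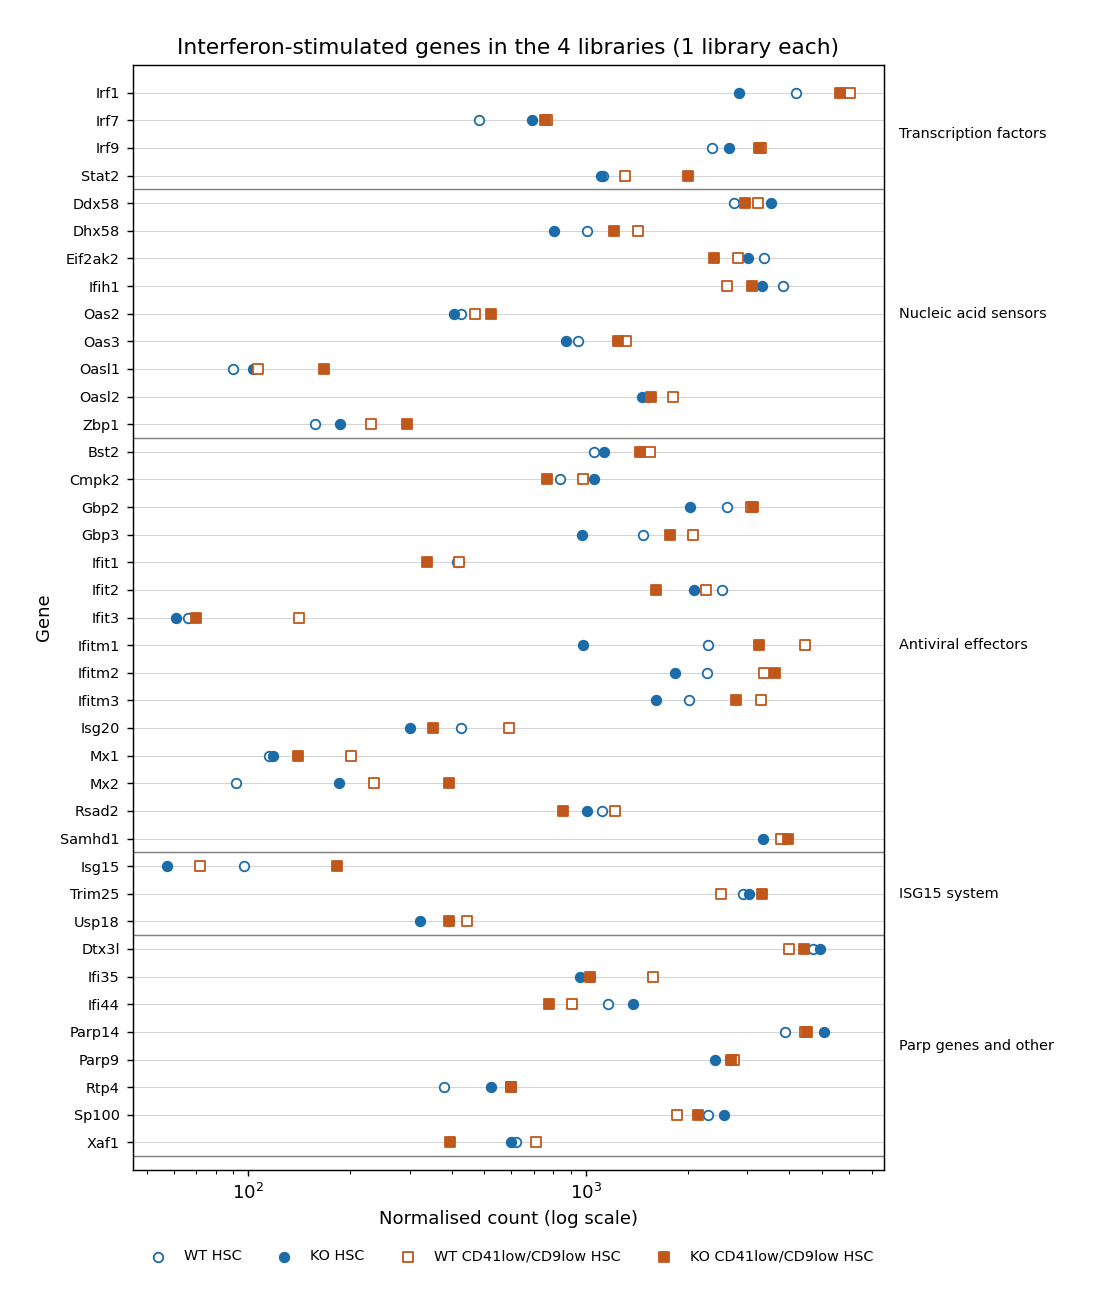
Normalised count (x axis, log scale) of each of the 39 interferon-stimulated genes (y axis, grouped by role) in the 4 libraries, 1 point per library, with circles for HSCs, squares for CD41low/CD9low HSCs, open symbols for WT and filled symbols for KO. Most genes had 4 nearby points, and Ifitm1, Mx2, Isg15 and Ifit3 were among those with wider gaps, Ifitm1 spanning 978.6 to 4443.5.

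Whether loss of Gfi1b went with a changed interferon programme was read first within HSCs. Of the 39 genes, 36 (92.3%) lay between the fold limits that the study used, KO/WT ratios of 0.6 and 1.5, against 83.3% of all genes past the filter in both populations and 87.9% of those within the members' range of mean counts. One gene, Mx2, was above 1.5 (11.8% of 14378 genes were), and 2 genes, Ifitm1 and Isg15, were below 0.6 (7.28% of all). The ratios ran from 0.428 to 2.02, with a median log2 ratio of -0.075 against -0.007 over all genes. The summed level of the 39 genes was 63557.5 normalised counts in WT and 59898.7 in KO HSCs, a ratio of 0.942. With 1 library a side there is no test, and the 95% intervals given with ratios are exact (Clopper-Pearson) and cover counting error only. In such bulk samples, fewer cells of a type and less RNA per cell cannot be told apart.

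In CD41low/CD9low HSCs, 32 genes (82.1%) lay between the limits, against 79.6% of all genes past the filter in both populations and 87.0% of those in the same range of counts. Of the genes past the filter in this population alone, 76.3% lay between the limits. The 4 genes above 1.5 were Isg15, Mx2, Oasl1 and Stat2 (11.5% of 14445 genes were above), and the 3 below 0.6 were Ifit3, Isg20 and Xaf1 (12.2% of all were below). The ratios ran from 0.495 to 2.54, with a median log2 ratio of -0.093 against 0.005 over all genes. The summed level was 72849.1 in WT and 69975.3 in KO cells, a ratio of 0.961. In this pair the libraries differed in markers of other cells: the 5 neutrophil markers summed to 20534.6 in WT and 4673.0 in KO, the 6 monocyte and macrophage markers to 10633.7 and 7482.3, and the 4 erythroid markers to 2563.5 and 81.1. In the HSC pair these lists summed to 8151.7 and 11153.0, 6878.2 and 5793.5, and 434.9 and 717.2. The highest monocyte and macrophage marker alone held 9628.0 (WT) and 7313.2 (KO) in the CD41low/CD9low pair, and 6366.8 and 5207.4 in the HSC pair. Of these 6 markers, 4 had a KO/WT ratio below 0.6 in the CD41low/CD9low pair (median ratio 0.263). In the HSC pair 1 was below 0.6 and 1 above 1.5 (median ratio 0.796). The part of these differences in the ratios of the interferon-stimulated genes was not tested.

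Over both populations, 31 of the 39 genes (79.5%) stayed between the limits, against 70.6% of all genes and 78.7% in the same range of counts. Mx2 was above 1.5 in both populations (2.78% of all genes were), no gene was below 0.6 in both (2.09%), and Isg15 passed the limits in opposite directions (2.92%). A ratio below 1 in both populations was found for 17 genes (43.6%, against 28.2% of all genes), above 1 in both for 8 (20.5%, against 28.9%) and on opposite sides of 1 for 14 (35.9%, against 42.9%). In a fit of all 4 libraries with population as a term (edgeR's quasi-likelihood test, with Benjamini-Hochberg adjustment), 0 of 39 genes passed an adjusted p of 0.05 for genotype, where 54 of 14511 genes (0.372%) were higher in KO and 23 (0.159%) lower. At an unadjusted p under 0.05 there were 5 of the 39, against 9.85% of all genes, with Mx2 higher in KO and Ifitm1, Ifit2, Gbp3 and Isg20 lower, and DESeq2 called 1, Ifitm1. This fit has 1 residual degree of freedom, and on simulated data it found 28 of 100 genes changed 2-fold and 98 of 100 changed 4-fold. The simulated counts had no difference between the populations, the same assumed spread for every gene and the same genotype fold in both populations. The real libraries differ from that, so these shares need not hold for them.

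**Figure D2:**
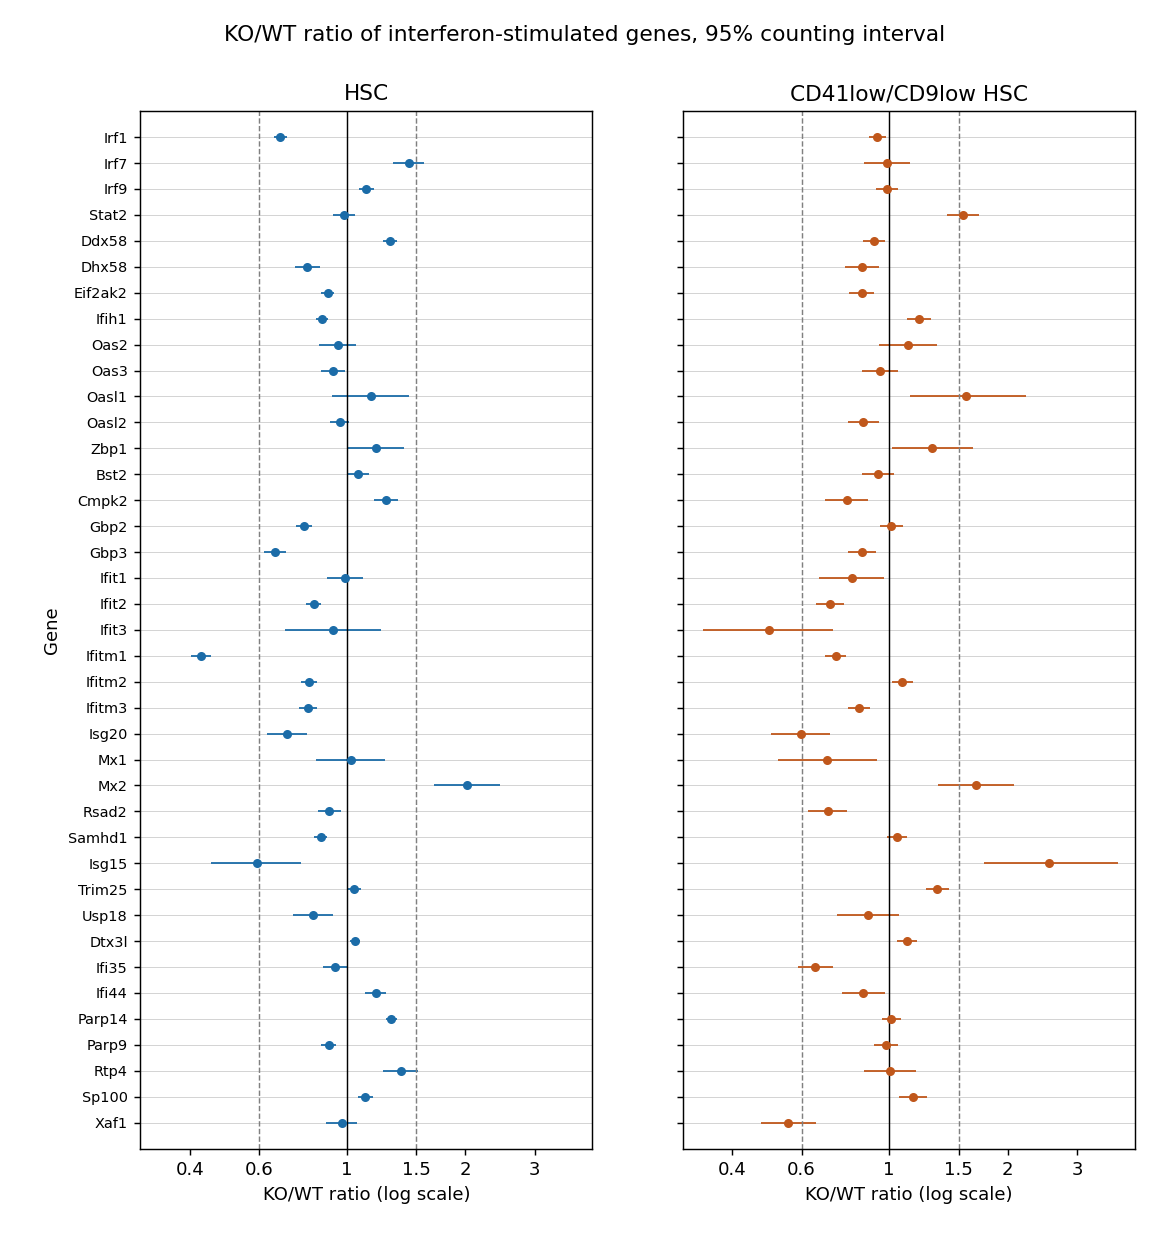
KO/WT ratio of normalised counts (x axis, log scale) for each gene (y axis) in HSCs (left) and CD41low/CD9low HSCs (right), with bars for the 95% counting interval and dashed lines at 0.6 and 1.5. Most points lie between the dashed lines in both panels, Mx2 lies right of 1.5 in both, and Isg15 lies on the left in HSCs and on the right in CD41low/CD9low HSCs.

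**Figure D3:**
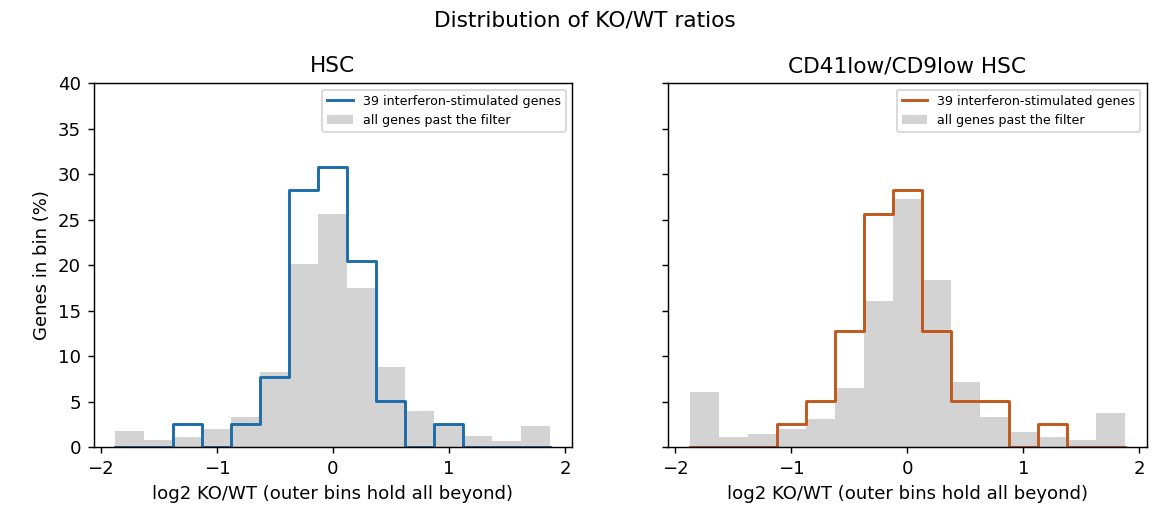
Share of genes (y axis, %) by log2 KO/WT ratio (x axis, bins of 0.25, the outer bins holding all values beyond) for all genes past the filter (grey bars) and the 39 interferon-stimulated genes (line), in HSCs (left) and CD41low/CD9low HSCs (right). The line and the bars are both centred near 0, with member medians of -0.075 and -0.093.

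The transcription factors of the response were expressed in every library, and 1 of the 4 passed the fold in 1 population. Stat2 (chr10:128270559-128292849), the partner of Irf9 in the interferon-activated complex, had 1123.9 normalised counts in WT and 1108.4 in KO HSCs, and 1299.2 and 2001.1 in the CD41low/CD9low pair. The KO library of CD41low/CD9low HSCs was thus the highest of the 4, with a KO/WT ratio of 1.54 (1.402–1.694) against 0.986 (0.9243–1.052) in HSCs, and in the fit over both populations the adjusted p for genotype was 0.679. Irf9, the DNA-binding part of the complex, had 2365.2 and 2656.7 in the HSC pair and 3285.9 and 3245.0 in the CD41low/CD9low pair. Both CD41low/CD9low libraries were above both HSC libraries, and the KO/WT ratios were 1.12 and 0.988.

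Irf7, which amplifies the response and is itself strongly interferon-induced, had 480.7 normalised counts in WT HSCs and 690.2 in KO HSCs, a ratio of 1.44 (1.312–1.572). The CD41low/CD9low pair stood at 763.5 and 754.6 (0.988, 0.8648–1.13), so WT HSCs alone were low and the other 3 libraries lay close together. Irf1 (chr11:53770014-53778374), a factor that responds to both interferon types, was at 4182.4 in WT and 2839.8 in KO HSCs and at 6038.3 and 5639.2 in the CD41low/CD9low pair. KO HSCs were lowest, with a ratio of 0.679 (0.654–0.7048), within the fold limits, and the ratio in the other pair was 0.934 (0.8905–0.9795).

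Among the 9 nucleic acid sensors, none passed the fold in HSCs and 1, Oasl1, passed it in CD41low/CD9low HSCs. Oasl1 (chr5:114923240-114937915), a relative of the oligoadenylate synthetases that is known to restrain translation of Irf7, had 89.9 and 103.4 normalised counts in the HSC pair and 106.7 and 167.7 in the CD41low/CD9low pair. The KO library of CD41low/CD9low HSCs was highest and the other 3 lay between 89.9 and 106.7, and at this low level the interval of the ratio of 1.57 was wide (1.127–2.218). The RNA helicase sensors Ddx58, which encodes RIG-I, and Ifih1 had ratios of 1.29 and 0.867 in HSCs, and 0.915 and 1.19 in CD41low/CD9low HSCs, each on opposite sides of 1. Eif2ak2, the kinase that stops translation on binding double-stranded RNA, was below 1 in both pairs, at 0.895 and 0.851, and so was Dhx58, at 0.795 and 0.854. Zbp1, a sensor of Z-form nucleic acid, was above 1 in both, at 1.19 and 1.29. Oas2, Oas3 and Oasl2, synthetases or relatives of them, had ratios between 0.86 and 1.12 in all cases.

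The 15 antiviral effectors held the gene furthest below 1 in HSCs and the only gene past the fold the same way in both populations. Their median log2 ratio was -0.22 in the HSC pair and -0.315 in the CD41low/CD9low pair, with 11 of 15 ratios below 1 in each, where 50.7% and 48.5% of all genes were below 1. The other groups had median log2 ratios, in the same order of pairs, of 0.074 and -0.018 for the transcription factors, -0.075 and -0.077 for the sensors, -0.281 and 0.407 for the ISG15 system and 0.115 and -0.011 for the 8 further genes. Ifitm1 (chr7:140967221-140969825) had 2288.8 normalised counts in WT and 978.6 in KO HSCs, and 4443.5 and 3250.5 in the WT and KO CD41low/CD9low libraries. The KO library was the lower one in each pair, KO HSCs being the lowest of the 4, and the ratios were 0.428 (0.4028–0.4537) and 0.731 (0.6898–0.7758). In the fit over both populations its log2 difference was -0.84 (SE 0.19), with an adjusted p of 0.0863 by edgeR and 0.0265 by DESeq2, so the call depended on the tool. Its neighbours Ifitm2 and Ifitm3 had ratios of 0.804 and 0.797 in HSCs, and 1.08 and 0.839 in CD41low/CD9low HSCs. Ifitm2 had 2279.6, 1832.2, 3359.8 and 3631.2 normalised counts in WT HSCs, KO HSCs, WT CD41low/CD9low HSCs and KO CD41low/CD9low HSCs. For Ifitm3 these were 2018.6, 1609.6, 3302.4 and 2770.8 in the same order.

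Mx2 (chr16:97535308-97560900), a gene of the dynamin-like GTPase family, was at 92.0 normalised counts in WT and 185.7 in KO HSCs, and at 236.0 and 391.7 in the WT and KO CD41low/CD9low libraries. KO was above WT in both pairs, and both CD41low/CD9low libraries were above both HSC libraries. The ratios were 2.02 (1.663–2.454) and 1.66 (1.332–2.079), and the log2 difference over both populations was 0.87 (SE 0.35) with an adjusted p of 0.445 by edgeR. Mx1, its neighbour on chromosome 16, had ratios of 1.02 and 0.697, so that the neighbours lay on opposite sides of 1 in CD41low/CD9low HSCs.

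Isg20, an exonuclease that degrades viral RNA, had 426.9 and 301.0 normalised counts in the HSC pair, and 591.1 and 353.2 in the CD41low/CD9low pair. KO was below WT in both, with ratios of 0.705 (0.627–0.7921) and 0.598 (0.5031–0.7095), of which the second is just under the limit of 0.6. Ifit3, of a family that binds viral RNA and translation factors, had 66.2 and 61.2 in the HSC pair, and 141.6 and 70.1 in the CD41low/CD9low pair. The WT CD41low/CD9low library was thus high and the other 3 were close together, and the ratio in that population was 0.495 (0.3377–0.7212) against 0.925 (0.6989–1.221) in HSCs. Ifit1 and Ifit2, from the same cluster on chromosome 19, were also below 1 in both populations, at 0.990 and 0.804 for Ifit1 and 0.825 and 0.707 for Ifit2. Rsad2 and Cmpk2, adjacent genes on chromosome 12 that together make an antiviral nucleotide, had ratios of 0.905 and 1.26 in HSCs, and 0.699 and 0.780 in CD41low/CD9low HSCs.

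Bst2 had 1057.2, 1128.8, 1545.5 and 1448.6 normalised counts in WT HSCs, KO HSCs, WT CD41low/CD9low HSCs and KO CD41low/CD9low HSCs, with the CD41low/CD9low libraries above the HSC libraries and ratios of 1.07 and 0.937 between the genotypes. Gbp3 (chr3:142560026-142573209), a guanylate-binding GTPase that attacks intracellular pathogens, was at 1476.5 and 972.1 in the HSC pair and at 2068.9 and 1766.1 in the CD41low/CD9low pair. Its ratios of 0.658 (0.6176–0.7016) and 0.854 (0.7855–0.928) were both below 1 and within the limits. Its neighbour Gbp2 had ratios of 0.779 and 1.014. Samhd1, which depletes the nucleotides that viruses need, had ratios of 0.859 and 1.05.

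The ISG15 system held the member past the limits in opposite directions. Isg15 (chr4:156199424-156200818), the ubiquitin-like modifier itself, had 96.9 normalised counts in WT and 57.3 in KO HSCs, and 71.8 and 182.8 in the WT and KO CD41low/CD9low libraries. KO HSCs were lowest and KO CD41low/CD9low HSCs highest, and the ratios were 0.591 (0.4524–0.768) and 2.54 (1.742–3.806). After a correction for exon length Isg15 was no longer below 0.6 in HSCs. The counts were small, 35 in the WT CD41low/CD9low library, and with 1 library a group the difference between the ratios could not be tested. Usp18, the protease that removes ISG15 and inhibits the receptor, had 391.3 and 322.0 in the HSC pair, and 443.3 and 391.7 in the CD41low/CD9low pair. Its ratios were 0.823 (0.7323–0.9242) and 0.884 (0.7378–1.059), both within the limits. Trim25, an E3 ligase for ISG15 that also activates RIG-I, had ratios of 1.04 and 1.33.

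Of the 8 further genes, only Xaf1 passed the fold, and only in CD41low/CD9low HSCs. Xaf1 (chr11:72301629-72313733), an antagonist of inhibitors of apoptosis, had 617.9 and 600.0 normalised counts in the HSC pair, and 710.1 and 394.5 in the WT and KO CD41low/CD9low libraries. The KO CD41low/CD9low library was the lowest of the 4, and the ratio was 0.555 (0.4733–0.6514) in that population and 0.971 (0.8891–1.06) in HSCs. Parp9 and its partner Dtx3l, which share a promoter region and 458 antisense exon bases, had ratios of 0.900 and 1.05 in HSCs and 0.980 and 1.11 in CD41low/CD9low HSCs. Parp14, Rtp4 and Sp100 were above 1 in both populations, with HSC ratios of 1.30, 1.37 and 1.115, and ratios in the CD41low/CD9low pair of 1.014, 1.006 and 1.148. Ifi44 and Ifi35 had ratios of 1.185 and 0.934 in HSCs, and 0.8595 and 0.650 in CD41low/CD9low HSCs.

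The ratios were set beside the promoter letters for a description. Genes with the ISRE core had median log2 ratios of -0.13 and -0.085 in the HSC and CD41low/CD9low pairs (10 genes), and those without it -0.051 and -0.174 (20 genes). Among the 10 genes with the core, 1 passed the fold in HSCs and 3 in CD41low/CD9low HSCs, and among the 20 without it 1 and 3 did.

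Over all genes as well as among these 39, more passed the test between the populations than between the genotypes. Of the 39 genes, 24 (61.5%) were higher in CD41low/CD9low HSCs than in HSCs in both genotypes, against 34.9% of all genes, and 6 (15.4%) were lower in both, against 37.3%. The median ratio between the populations was 1.18 in WT and 1.17 in KO libraries, where that of all genes was 0.989 and 0.986, and the summed level was 1.146 times as high in WT and 1.168 times as high in KO. In edgeR's quasi-likelihood fit with genotype as a term, 7 of 39 genes were higher in CD41low/CD9low HSCs at an adjusted p under 0.05, against 7.79% of 14511 genes, and 1 was lower, against 12.1%. For genotype, 0.372% of all genes were higher in KO and 0.159% lower by the same test. An unadjusted p under 0.05 for population was found for 13 of the 39, near the share of all genes (33.1%). The populations also differed in sequencing depth, in sorting gate and in the list of genes that was counted. That list held 38293 entries for each HSC library and 41214 for each CD41low/CD9low library, and the annotation releases are not given. These differences cannot be told apart from the population here. The 8 megakaryocyte markers summed to 40240.8 and 47225.8 in the HSC pair and to 12560.9 and 12968.9 in the CD41low/CD9low pair, where Gp6 was at 0, and their part in the result was not tested. Among them, Itga2b and Cd9 encode CD41 and CD9, by which the CD41low/CD9low HSCs were gated, so their levels are not independent of the sort.

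The largest difference between the populations was that of Ifitm1, at a log2 value of 1.34 (SE 0.19, edgeR adjusted p = 0.0006), with Ifitm2 at 0.78 (SE 0.16, adjusted p = 0.00562) and Ifitm3 at 0.75 (SE 0.15, adjusted p = 0.00456). All 3 Ifitm genes of the 39 were thus higher in CD41low/CD9low HSCs in both genotypes. Irf1 rose by 0.76 (SE 0.16, adjusted p = 0.00541), Gbp3 by 0.68 (SE 0.17, adjusted p = 0.0138) and Mx2 by 1.22 (SE 0.36, adjusted p = 0.0313). The helicase regulator Dhx58 rose by 0.55 (SE 0.18, adjusted p = 0.0452), from 1007.7 and 801.5 normalised counts in WT and KO HSCs to 1420.3 and 1212.2. Ifi44 was the exception, lower in CD41low/CD9low HSCs, at a log2 value of -0.59 (SE 0.19, adjusted p = 0.0482). It went from 1161.1 and 1375.8 in WT and KO HSCs to 905.1 and 777.9. DESeq2 called 5 of the 39 genes higher, where 880 of 14511 genes were. It did not call Mx2, Dhx58 or Ifi44 (adjusted p = 0.0791, 0.12 and 0.121).

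**Figure D4:**
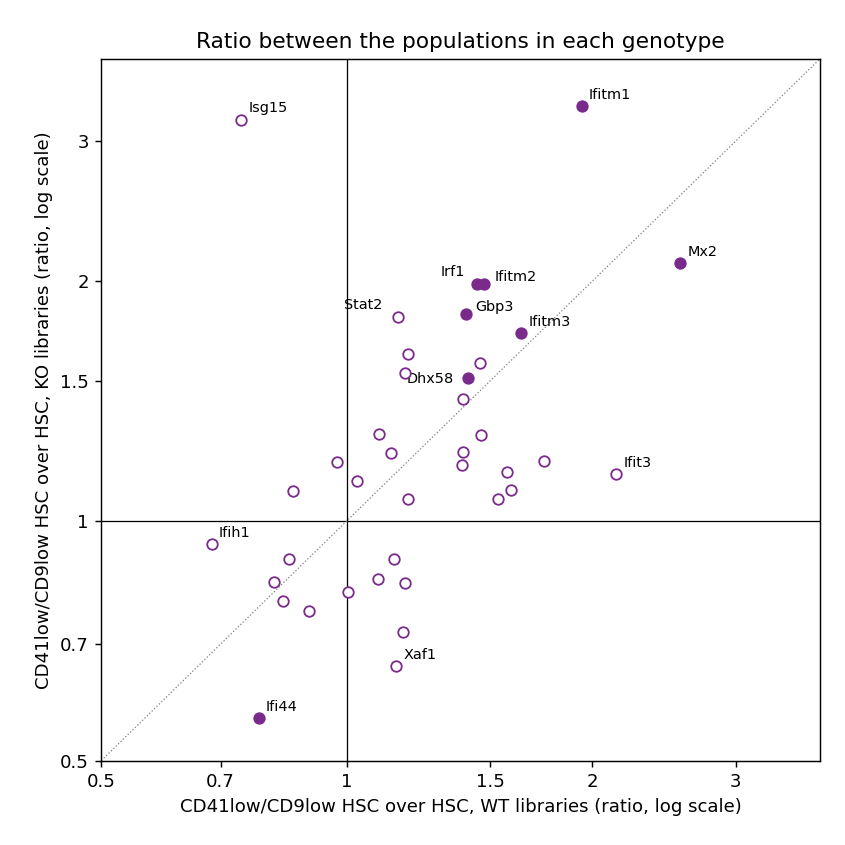
Ratio of CD41low/CD9low HSCs to HSCs in the WT libraries (x axis, log scale) and the KO libraries (y axis, log scale) for each of the 39 genes, filled where the edgeR population effect had an adjusted p under 0.05. Most points lie above 1 on both axes, Ifitm1 and Mx2 furthest out along the diagonal, and Isg15 lies above 1 in KO and below 1 in WT libraries.

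The signals upstream of these genes were read from lists of the pathway. Of 12 interferon genes counted, none had a count above 0 in any library except Ifng with 8 counts in WT HSCs, whereas 3 counts would be 0.059 to 0.236 CPM in the 4 libraries. The receptor chains were present throughout: Ifnar1 had 2905.6 and 3435.1 normalised counts in the HSC pair and 3608.2 and 3889.6 in the CD41low/CD9low pair, and Ifnar2 between 1777.4 and 1925.0 in all 4 libraries. Ly6a, the Sca1 gene of the sorting gate, had 642.7 and 455.7 in the HSC pair and 1278.7 and 1341.4 in the CD41low/CD9low pair.

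Of the 12 receptor and signalling genes, Ifngr2 and Socs1 were above 1.5 and Socs3 and Ifnlr1 below 0.6 in HSCs, and Tyk2 and Socs3 were above 1.5 in CD41low/CD9low HSCs. These and the genes in the next sentences were named after their values were seen, except where they passed the fold the same way in both populations. Of the 14 induction genes, Tlr7 and Irf8 were above and Tlr3 and Irf5 below in HSCs, and Ticam1 was above and Tlr3, Tlr7 and Irf8 below in CD41low/CD9low HSCs. Of 46 other interferon-induced genes, Slfn1, Slfn5 and Ifi204 were above and Gbp9, Ifit1bl1 and Ifit3b below in HSCs, and Oas1g and Ifi27l2a (listed at 0 in the WT library) were above and Gbp9, Ifit1bl1 and Slfn1 below in CD41low/CD9low HSCs. Over all genes, 11.8% were above and 7.28% below in HSCs, and 11.5% above and 12.2% below in CD41low/CD9low HSCs. By edgeR, 1 gene passed the genotype test at an adjusted p under 0.05, among 11 receptor and signalling, 13 induction and 46 other induced genes tested, where 0.372% of all genes were higher and 0.159% lower.

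That gene was Gbp9 (chr5:105077630-105139539), another guanylate-binding GTPase, and it was lower in KO in both populations. It had 321.4 and 119.2 normalised counts in the HSC pair and 1130.9 and 371.1 in the CD41low/CD9low pair, with ratios of 0.371 (0.3123–0.4388) and 0.328 (0.2826–0.3803). The log2 difference was -1.52 (SE 0.26, edgeR adjusted p = 0.0186). Ifit1bl1, an Ifit relative on chromosome 19, was likewise below 0.6 in both, at 124.3 and 37.5 in HSCs and 158.0 and 60.5 in CD41low/CD9low HSCs, with ratios of 0.302 and 0.383 and an adjusted p of 0.442. Tlr3, the endosomal sensor of double-stranded RNA, was at 93.1 and 51.4 in HSCs and 88.3 and 12.4 in the CD41low/CD9low pair, with ratios of 0.552 and 0.140.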

How the data were processed

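Poly(A) RNA of sorted mouse HSCs was sequenced in 4 libraries with a stranded kit, 1 library per genotype and population. The authors aligned reads to mm10 with TopHat2 2.0.10, used SAMtools and counted reads per Ensembl gene with HTSeq, and deposited raw counts per gene; the HTSeq settings and annotation releases are not given in the sources used here. The libraries of the populations list different genes, and the 37140 shared ones were used. Lines that name no gene were left out; per 100 counts on genes, reads with no feature numbered 60.1 to 105.3 and alignments that were not unique 96.2 to 121.6. Symbols, exon lengths and coordinates came from GENCODE M21 (GRCm38).

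Here, each count was divided by its library's size factor, from the median of ratios over all 4 libraries, and the KO/WT ratio was given where the mean normalised count of the pair was at least 10. Intervals are exact Clopper-Pearson at 95%, and cover counting error only. Genotype and population effects were fitted with edgeR 4.0.16 (quasi-likelihood test, TMM, mean normalised count at least 10, 14511 genes, 1 residual degree of freedom), with DESeq2 1.42.0 as an alternative, in R 4.3.3 and Python 3.11.15. The fit was tested on data simulated with no population effect and the same assumed spread for every gene, and gave 7 false calls there. Total counts were 50781007, 41690708, 12732079 and 19123185 in WT HSCs, KO HSCs, WT CD41low/CD9low HSCs and KO CD41low/CD9low HSCs, and 3 counts are 0.059, 0.072, 0.236 and 0.157 CPM.

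Named in full were genes past 1.5 or 0.6 in either population, those with an adjusted p under 0.05, the 5 with the highest mean RPKM, Irf7, Irf9, Stat2 and Usp18, and, outside the 39, Gfi1b, Ifnar1, Ifnar2, Ly6a and pathway genes past the fold the same way in both populations; some items are not reported here. The members, lists and tests were chosen with earlier results of these data known. Alternatives were other size factors, filters, fold limits, a pseudocount of 1, a correction for exon length and DESeq2. Plasmacytoid dendritic cell markers summed to 45.2, 128.4, 47.2 and 45.4 normalised counts and lymphoid markers to 911.8, 1423.8, 262.7 and 815.0, in the order above.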

Additional observations from a re-analysis of the deposited data

Results flagged for a closer look

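In some genes the KO/WT ratio lay on opposite sides of 1 in the populations, past the fold limits in each, and with 1 library a group this difference was not tested. Among the 39 genes this was Isg15, at 0.591 in HSCs and 2.54 in CD41low/CD9low HSCs. Among the pathway genes it was Socs3, an inhibitor of cytokine signalling, at 0.175 and 1.82, Tlr7, a sensor of single-stranded RNA, at 6.97 and 0.0924, Irf8, a factor of myeloid and dendritic cells, at 1.89 and 0.414, and Slfn1 at 1.92 and 0.067. The normalised counts of Slfn1 were 7.5, 14.5, 61.6 and 4.1 in WT HSCs, KO HSCs, WT CD41low/CD9low HSCs and KO CD41low/CD9low HSCs, the last of which rests on 3 counts. The Tlr7 ratio of 0.0924 (0.02359–0.263) likewise rests on few reads, 29 counts in the WT and 4 in the KO CD41low/CD9low library. Plasmacytoid dendritic cell markers, of which Ccr9, Klk1 and Ly6d were at 0 in both CD41low/CD9low libraries, summed to 45.2 and 128.4 in WT and KO HSCs. Their part in the ratios of Tlr7 and Irf8 was not tested.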

How the results depend on the processing

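No paired analysis was possible because each genotype and population has 1 library and the labels give no replicate numbers, and for the same reason no library could be left out. In HSCs, limits of 2 and 0.5 left 1 gene above (Mx2) and 1 below (Ifitm1), against 5.3% and 4.47% of all genes. The correction for exon length gave 2 genes above (Mx2 and Rtp4) and 1 below (Ifitm1, at a log2 ratio of -1.03). With it, 12.1% of all genes were above and 6.36% below. In CD41low/CD9low HSCs, limits of 2 and 0.5 left 1 gene above (Isg15) and 1 below (Ifit3), against 6.45% and 9.62% of all genes. For genotype, 1 member was lower (Ifitm1) without a filter, with a mean of at least 50 and by DESeq2, with adjusted p = 3.57e-05, 0.0363 and 0.0265, and 0 with RLE normalization by edgeR (adjusted p = 0.125). Over all genes the genotype calls were 54 higher and 23 lower, 254 and 166 without a filter, 83 and 48 with a mean of at least 50, 70 and 30 by DESeq2 and 44 and 18 with RLE. For population, 0 members were lower with RLE and by DESeq2, where 1654 and 1484 of 14511 genes were. With a mean of at least 50, 11 members were higher, where 1376 of 12265 genes were. Other filters and fold limits do not enter a ratio, so under them the ratios of the named members were the same by construction. With those settings included, 159 of 160 ratios under the alternatives moved by less than their counting interval. The remaining 1 is that of Ifitm1 in HSCs with the correction for exon length. That correction also took 1 ratio across 1, that of Ifit3 in HSCs, which had not passed the fold (log2 -0.11 before and 0.02 after it). The size of the counting interval limits Isg15, Ifit3 and Oasl1 most.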
